A study of Mus musculus with 17 samples.

Results

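The genes described here are 45 mouse genes that modify, fold, export and crosslink collagen, together with the genes of the unfolded protein response that serve secretion in general. They were taken by name from a list of this pathway, and all 45 were found among the 55335 genes counted in each of 17 RNA-seq libraries. By role they comprised 4 prolyl 4-hydroxylase genes, 4 genes of lysyl hydroxylation and glycosylation, 6 genes of prolyl 3-hydroxylation, 3 procollagen chaperones, 3 genes of export from the endoplasmic reticulum (ER), 6 stress sensors and transcription factors, 13 general ER folding factors and targets of the unfolded protein response (called ER folding genes below) and 6 genes that process or crosslink collagen outside the cell.

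The study measured RNA of sorted skeletal cells from the bone fraction of mice that carry a mutation of Cxcr4, the receptor of the chemokine CXCL12. Skeletal stromal/stem cells (SSCs) were sorted as Sca-1+ PDGFRα+ cells and osteoprogenitor cells (OPCs) as Sca-1- cells with or without PDGFRα, both within the CD45- TER119- CD31- CD51+ stroma. Mice were WT (Cxcr4+/+), heterozygous +/1013 or homozygous 1013/1013 for a knock-in allele that removes the end of the receptor's cytoplasmic tail, lowers its desensitization and is present in every cell of the animal. There were 3 libraries in each group of OPCs, 3 each of WT and +/1013 SSCs and 2 of 1013/1013 SSCs, each from a pool of 3 mice and 3000 sorted cells, and the mice were, as a rule, female littermates of 8 to 12 weeks.

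Type I procollagen is made in the ER, where prolines and lysines of its chains are hydroxylated before the chains wind into a triple helix. Dedicated chaperones hold the helix until it leaves in enlarged COPII carriers, and enzymes outside the cell then trim the propeptides and crosslink the fibrils. The unfolded protein response senses unfolded proteins in the ER and raises the general folding factors, and bone-forming cells are known for a heavy load of collagen passing through this route.

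OPC libraries held 64099849 to 92683497 counts on genes and SSC libraries 44217695 to 50509592. Transcripts of Col1a1 and Col1a2, the chains of type I collagen, took 16.1 to 38.7% of OPC counts and 0.563 to 2.78% of SSC counts, and the 45 genes took 1.88 to 2.82% and 1.46 to 1.94%. Levels are given as normalized CPM, which are CPM of the counts on genes after TMM scaling over all 17 libraries. The 6 SSC markers summed to 183 to 518 normalized CPM in OPCs and 1506 to 4589 in SSCs, and the 6 osteoblast lineage markers to 97839 to 304377 and 1926 to 12073, as the sort labels say. Col1a1 alone made up 94177 to 292413 of the second sum in OPCs. The other osteoblast lineage markers were each higher in every OPC library too. Of the SSC markers, Itgav overlapped, at 28.0 to 68.7 in OPCs and 17.8 to 59.7 in SSCs, and the others did not. Cxcr4 stood at 4.48 to 19.4 normalized CPM in OPCs and at 0.110 to 1.30 in SSCs other than WT replicate 3, which had 47.3. The allele truncates the protein, so this level checks no label. The libraries that stood apart were OPC WT replicate 3, OPC 1013/1013 replicate 2 and SSC WT replicate 3, in which 10 leukocyte markers summed to 10237, 9662 and 3451 normalized CPM against at most 869 elsewhere. Further, 7 plasma cell markers summed to 3990 in SSC WT replicate 3 and 2124 in SSC +/1013 replicate 1 against at most 368 elsewhere, with Mzb1 at 0 in +/1013 OPCs and 1013/1013 SSCs and Prdm1 at 0 in +/1013 SSCs. In SSCs, the WT libraries also had 3.68 to 4.15% of reads outside annotated genes and 21449 to 22599 genes with a count, against 1.5 to 2.69% and 15748 to 19227 in the mutant libraries, so in these cells library preparation cannot be told apart from genotype.

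Within each cell type, the genes ranked over a wide range when levels were set per kilobase of exon. Serpinh1 (ENSMUSG00000070436, chr7:99345376-99353239, minus strand, mm10), which encodes the collagen chaperone HSP47, was first in OPCs of each genotype, with 3103 ± 1115 normalized CPM per kb in WT (SD, n = 3). In WT OPCs P4hb, the disulfide isomerase that is also the beta subunit of prolyl 4-hydroxylase, followed at 1095 ± 165 (SD, n = 3), and the SDs of these 2 levels did not meet. Hspa5 at 414 ± 86.2, Fkbp10 at 374 ± 29.6 and Pcolce at 360 ± 122 normalized CPM per kb (SD, n = 3) came next and did not differ beyond their spread. In SSCs the order at the top was another: Serpinh1 at 511 ± 69.0 and Hspa5 at 506 ± 126 were level in WT, whereas Hspa5, the ER chaperone BiP, was first in +/1013 SSCs at 783 ± 255 (SD, n = 3). The stress sensors Ern1, which encodes IRE1, and Atf6 were the lowest in all 6 groups, with 1.33 ± 0.357 and 2.93 ± 1.49 normalized CPM per kb in WT OPCs (SD, n = 3).

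**Figure D1:**
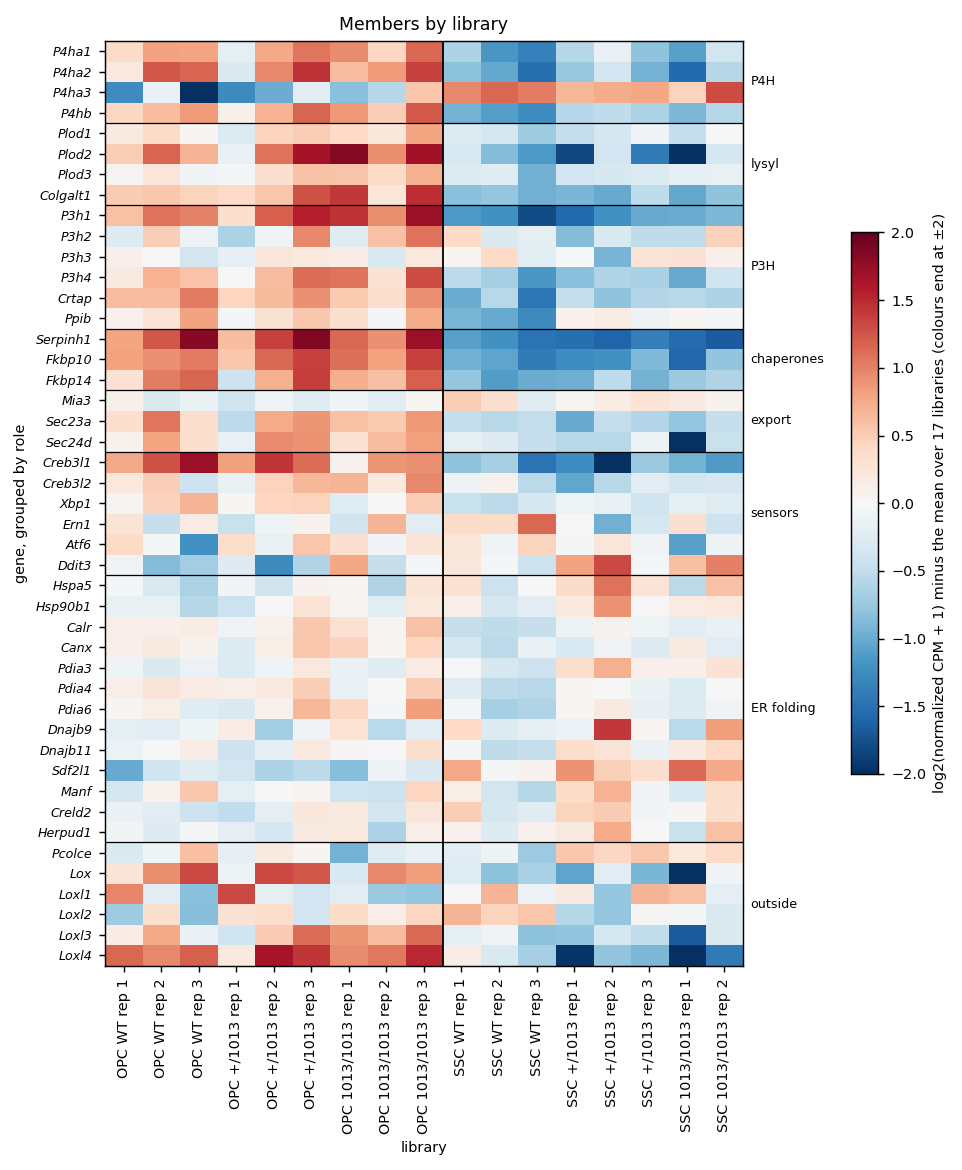
Level of each of the 45 genes (vertical axis, grouped by role) in each of the 17 libraries (horizontal axis, by group), as log2(normalized CPM + 1) minus the gene's mean over all libraries, with colours limited to 2 on either side. The procollagen chaperones and most hydroxylase genes are higher in the 9 OPC libraries, whereas the 13 general ER folding genes show no such split, and Serpinh1 ranges from 4579 to 10750 normalized CPM in OPCs and from 942 to 1396 in SSCs.

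SSCs were first compared with OPCs within each genotype, to see how this machinery differs between the stem cell and the osteoblast progenitor. A gene was called when edgeR's quasi-likelihood test gave a Benjamini-Hochberg adjusted p under 0.05 over all 20238 genes tested and the change was at least 1.5-fold. All 45 genes passed the filter on low counts. In WT, 15 of the 45 genes (33.3%) were called, 1 higher and 14 lower in SSCs, where 11.4% of all genes tested were called and 5.86% were called lower (5.55% higher). In +/1013 mice 16 were called, 2 higher and 14 lower (12.5% of all genes, 6.44% higher and 6.02% lower), and in 1013/1013 mice 17, of which 1 was higher and 16 were lower (13.1% of all genes, 6.94% higher and 6.12% lower). The share of all genes called depended on the filter. With a stricter one, which kept the 10144 genes that reached 10 counts in each library, all 45 genes passed. Then 42.2%, 48.9% and 42.2% of the 45 genes were called in the 3 genotypes, beside 25.7%, 25.7% and 27.6% of the genes kept. In the main fit, the median log2 fold change over the 45 genes was -0.54, -0.53 and -0.53, beside 0.17, 0.00 and -0.20 over all genes tested. In all, 12 genes were called lower in each genotype, namely P4ha1, P4ha2, P4hb, Colgalt1, P3h1, P3h4, Crtap, Serpinh1, Fkbp10, Fkbp14, Sec23a and Creb3l1, and 24 genes were called in none. The groups did not overlap for 27, 23 and 27 genes, where 37.9%, 35.1% and 40.2% of all genes did not overlap.

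These counts varied with the libraries. Without the 4 libraries that held blood cell transcripts, 7 genes were called in WT (3.65% of all genes), 8 in +/1013 (7.89%) and 13 in 1013/1013 mice (10.3%). In +/1013 mice the count was 9 without OPC replicate 2 (7.94% of all genes), 7 without OPC replicate 3 (7.43%) and 7 without SSC replicate 1 (7.81%). In 1013/1013 mice it was 8 without OPC replicate 3 (8.42%) and 5 without SSC replicate 1 (4.84%). When the 2 groups of 1013/1013 mice were fitted alone, 1 gene was called, P3h1, which is 2.22% of the 45 genes and less than the 3.14% of all genes called there. DESeq2 called 21, 22 and 20 of the 45 genes in the 3 genotypes, beside 12.3%, 13.7% and 15% of the 32878 genes with any count, a larger set than edgeR tested. Called in every alternative tried were P4hb, Colgalt1, P3h1, Crtap, Ppib, Serpinh1 and Fkbp10 in WT, the same list with Creb3l1 in place of Ppib in +/1013, and P3h1 in 1013/1013 mice. In these bulk samples, fewer cells of a type and less RNA per cell cannot be told apart. Chondrocyte transcripts also differed: 6 markers summed to 11564 to 82110 normalized CPM in OPCs and to 48.6 to 3861 in SSCs, where Matn1 was at 0 in both mutant groups, and their part in these results was not tested.

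**Figure D2:**
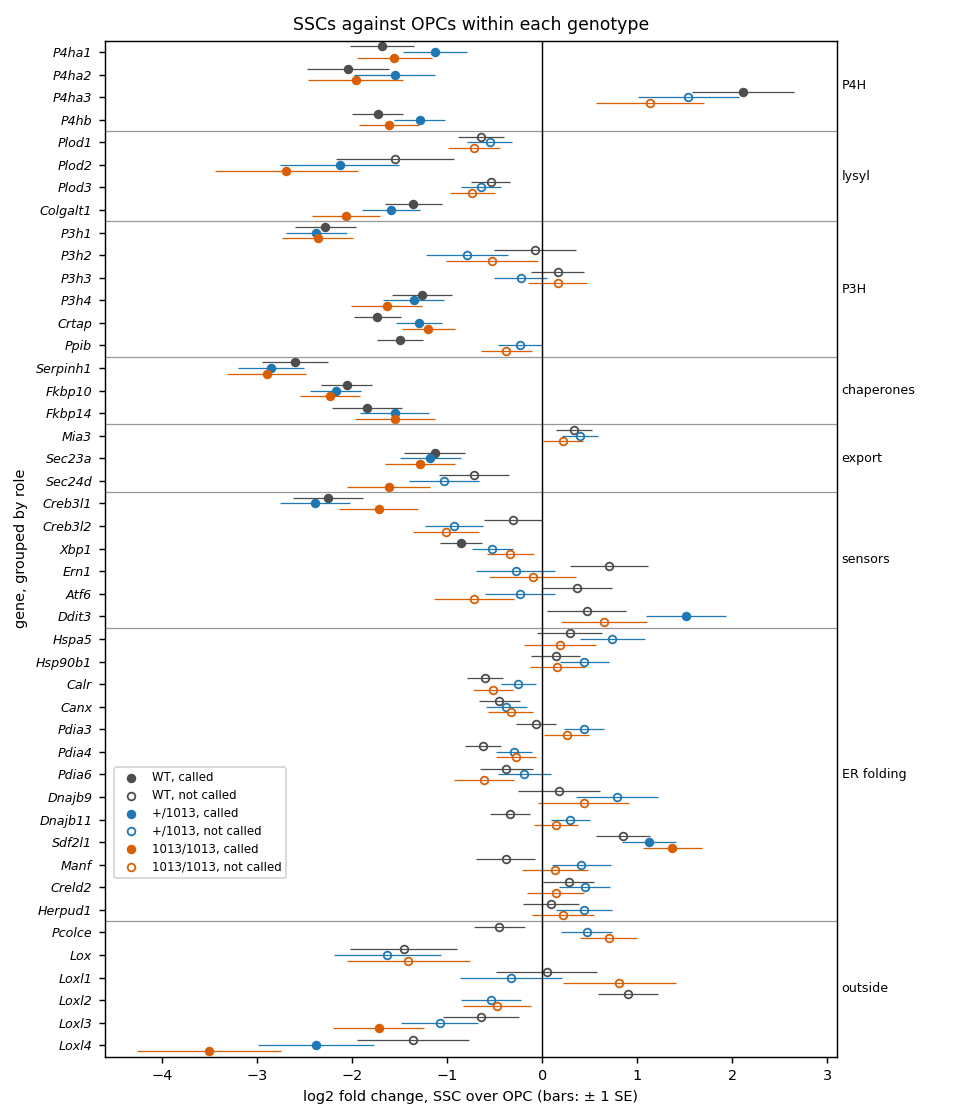
Log2 fold change of SSCs over OPCs (horizontal axis, bars ± 1 SE from the edgeR fit) for each gene (vertical axis, grouped by role) in WT, +/1013 and 1013/1013 mice; filled points were called. The 3 procollagen chaperones lie between -2.90 and -1.55 in all genotypes, whereas the 13 ER folding genes lie on both sides of 0, with Sdf2l1 alone called higher.

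Of the 4 prolyl 4-hydroxylase genes, whose enzyme makes the hydroxyprolines that stabilize the helix, 3 fell in each genotype and P4ha3, the third catalytic subunit, rose in WT. The beta subunit P4hb was measured at 2680, 3098 and 3622 normalized CPM in WT OPCs and at 1046, 933 and 851 in WT SSCs. All SSC libraries were below all OPC libraries, at 851 to 1417 against 2168 to 4717 over the genotypes, and log2 fold changes were -1.73 ± 0.27 (SE, adjusted p = 0.00129), -1.29 (adjusted p = 0.00679) and -1.61 (adjusted p = 0.00462). The alpha subunits P4ha1 and P4ha2 fell, with log2 fold changes of -1.69 and -2.04 in WT (adjusted p = 0.00588 and 0.00761) and were called in both mutants too. P4ha3 had 10.3, 23.6 and 4.29 normalized CPM in WT OPCs and 51.9, 59.4 and 54.4 in WT SSCs. It was 2.11 ± 0.54 higher on the log2 scale in WT SSCs (adjusted p = 0.0215), and 1.54 and 1.13 in the mutants, where it missed the threshold (adjusted p = 0.0741 and 0.209), although DESeq2 called it in +/1013 (adjusted p = 0.0311).

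Lysyl hydroxylases make the hydroxylysines that carry sugars and crosslinks. Colgalt1, the galactosyltransferase that adds the first of these sugars, fell, with log2 fold changes of -1.36 ± 0.30, -1.59 and -2.06 in the 3 genotypes (adjusted p = 0.0104, 0.00375 and 0.00223). Plod2, the lysyl hydroxylase of the collagen telopeptides, stood at 994, 533 and 893 normalized CPM in 1013/1013 OPCs against 31.3 and 219 in SSCs. These groups did not overlap, although the 2 SSC libraries differed widely, and Plod2 fell in 1013/1013 (log2 fold change -2.69 ± 0.75, adjusted p = 0.0319) and +/1013 mice (-2.13, adjusted p = 0.0397). In WT its log2 fold change was -1.55 (adjusted p = 0.125). Plod1 and Plod3, the hydroxylases of the helix, were not called by edgeR, with log2 fold changes from -0.74 to -0.54, whereas DESeq2 called Plod1 in WT and 1013/1013 mice and Plod3 in both mutants.

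The prolyl 3-hydroxylation complex joins P3h1 with Crtap and the prolyl isomerase cyclophilin B, encoded by Ppib. P3h1 (chr4:119232915-119248975, plus strand, mm10) was measured at 180, 256 and 238 normalized CPM in WT OPCs and at 53.5, 51.3 and 34.1 in WT SSCs. The ranges were 150 to 394 over all OPC libraries and 34.1 to 63.7 over all SSC libraries, without overlap, and it fell, with log2 fold changes of -2.28 ± 0.32, -2.38 and -2.36 (adjusted p = 0.000568, 0.000269 and 0.00111). Crtap, which holds P3h1 in the complex, fell, with log2 fold changes of -1.74, -1.30 and -1.20 (adjusted p = 0.000641, 0.00331 and 0.0128). P3h4, a partner of lysyl hydroxylation in the ER, fell, with log2 fold changes of -1.27, -1.35 and -1.63 (adjusted p = 0.0204, 0.0138 and 0.0115).

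Ppib was the member of this complex that was called in WT alone. It had 139, 159 and 230 normalized CPM in WT OPCs against 69.1, 65.0 and 53.4 in WT SSCs, and fell by 1.49 ± 0.24 (adjusted p = 0.00149). In the mutants the OPC and SSC libraries overlapped, at 127 to 220 and 123 to 146, with log2 fold changes of -0.23 (adjusted p = 0.560) and -0.38 (adjusted p = 0.351). P3h2 and P3h3, the other prolyl 3-hydroxylases, were not called and lay between -0.79 and 0.16.

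All 3 procollagen chaperones fell in each genotype. Serpinh1 was measured at 5169.6, 7036 and 10535 normalized CPM in WT OPCs and at 1396, 1286 and 1066 in WT SSCs. In +/1013 mice the OPC libraries had 4579, 7674 and 10750.3 and the SSC libraries 1048, 986 and 1151. In 1013/1013 mice they had 6632, 5591 and 9762 against 1025 and 942. Every OPC library was above every SSC library, and Serpinh1 fell, with log2 fold changes of -2.60 ± 0.35, -2.85 ± 0.35 and -2.90 ± 0.41 (SE, adjusted p = 0.000412, 0.000144 and 0.000565). Fkbp10, an ER prolyl isomerase that binds procollagen, ranged from 838 to 1497 normalized CPM in OPCs and from 195 to 335 in SSCs, and fell, with log2 fold changes of -2.05 ± 0.27, -2.17 and -2.23 (adjusted p = 0.00034, 0.000153 and 0.000522). Fkbp14, a related isomerase, fell, with log2 fold changes of -1.84, -1.55 and -1.55 (adjusted p = 0.00553, 0.0134 and 0.0280).

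Of the export genes, Sec23a, which encodes a subunit of the inner COPII coat, fell, with log2 fold changes of -1.13, -1.18 and -1.28 (adjusted p = 0.0350, 0.0271 and 0.0350). Sec24d, its cargo-binding partner, was called in 1013/1013 mice alone, where it fell by 1.61 ± 0.44 (adjusted p = 0.0271), beside -0.72 and -1.03 in the other genotypes (adjusted p = 0.229 and 0.0871), of which DESeq2 called +/1013 (adjusted p = 0.0270). Mia3, the receptor that loads bulky cargo such as procollagen into these carriers, was not called and stood at 60.9 to 86.6 normalized CPM in OPCs and 68.5 to 115 in SSCs.

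Among sensors and transcription factors, Creb3l1, which encodes OASIS, a membrane-bound factor that drives Col1a1 in osteoblasts, stood out. It had 269, 382 and 522 normalized CPM in WT OPCs and 90.3, 99.4 and 56.2 in WT SSCs, 278, 427 and 342 against 66.5, 38.9 and 94.2 in +/1013 mice, and 166, 293 and 297 against 81.8 and 71.3 in 1013/1013 mice. No library of SSCs reached the lowest of OPCs, and Creb3l1 fell, with log2 fold changes of -2.25 ± 0.37, -2.39 and -1.72 (adjusted p = 0.00159, 0.000815 and 0.0158). Its relative Creb3l2 was not called by edgeR (log2 fold changes -0.31, -0.93 and -1.01), but was by DESeq2 in both mutants. Xbp1, the factor activated by IRE1, fell by 0.86 ± 0.22 in WT (adjusted p = 0.0219) and had log2 fold changes of -0.53 and -0.34 in the mutants (adjusted p = 0.136 and 0.368). Ern1 and Atf6 were called in no genotype. Ddit3, which encodes the stress factor CHOP, was measured at 20.2, 9.42 and 15.7 normalized CPM in +/1013 OPCs and at 43.3, 62.0 and 23.7 in +/1013 SSCs, and rose by 1.51 ± 0.42 (adjusted p = 0.0309). Its log2 fold changes in WT and 1013/1013 mice were 0.47 and 0.65 (adjusted p = 0.509 and 0.347).

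The 13 general ER folding genes behaved otherwise than the collagen-specific genes. Across the genotypes 0, 1 and 1 of the 13 were called, with medians of -0.07, 0.44 and 0.15, whereas 12, 11 and 11 of the 17 genes of hydroxylation and procollagen chaperoning were called, all lower except P4ha3 in WT, with medians of -1.55, -1.30 and -1.55. With DESeq2 size factors or upper-quartile scaling in the edgeR fit, 2 of the 13 were called lower in WT, and the DESeq2 test called Calr and Pdia4 lower and Sdf2l1 higher there. Hspa5 (chr2:34771970-34777547, plus strand, mm10) was measured at 2119, 1747 and 1390 normalized CPM in WT OPCs and at 2661, 1597 and 2163 in WT SSCs. These ranges overlapped, and its log2 fold changes were 0.29, 0.74 and 0.19 (adjusted p = 0.641, 0.180 and 0.784). Sdf2l1, a component of a BiP co-chaperone complex, was the exception. It had 27.7, 23.2 and 24.8 normalized CPM in +/1013 OPCs against 68.1, 50.4 and 46.0 in SSCs, and 19.6, 33.7 and 29.3 in 1013/1013 OPCs against 80.6 and 61.5 in SSCs. It rose by 1.12 ± 0.28 (adjusted p = 0.0198) and 1.37 ± 0.31 (adjusted p = 0.0112), with 0.85 in WT (adjusted p = 0.0683; DESeq2 adjusted p = 0.0477), and no library of SSCs was below an OPC library. Hsp90b1, the ER form of HSP90, the lectin chaperones Calr and Canx, the disulfide isomerases Pdia3, Pdia4 and Pdia6, the BiP co-chaperones Dnajb9 and Dnajb11, Herpud1 of ER-associated degradation and the secreted stress proteins Manf and Creld2 were not called by edgeR, with log2 fold changes from -0.62 to 0.79.

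The promoters of these genes were searched for stress response motifs. RefSeq promoters (mouse build GRCm38.p6, which is mm10) matched 34 of the 45 genes, and Plod2, P3h2, P3h4, Fkbp10, Creb3l1, Atf6, Manf, Lox, Loxl1, Loxl2 and Loxl3 were not matched. The 250 bases before each RefSeq start were searched on both strands for the ER stress element, to which ATF6 and NF-Y bind, spelled CCAAT, any 9 bases and CCACG. It was found in 6 of 12 ER folding genes (50%), in 0 of 13 genes of hydroxylation and procollagen chaperoning, and in 35 of 27025 mouse genes with a promoter (0.130%). The ER folding list was drawn up to include targets of the unfolded protein response, so its share follows in part from how the list was made. The second form of this element, spelled ATTGG, any base and CCACG, was found in Herpud1 and in 10 of 27025 genes (0.0370%), and the XBP1-type element TGACGTGG in Sec24d and in 163 genes (0.603%). The heat shock element, spelled GAA, TTC and GAA with any 2 bases between them, was found in 0 of the 34, beside 139 of all genes with a promoter (0.514%). A match is a string of letters, not a measured site. The matches are shown because most lie in the ER folding genes, and they are written on each gene's strand with the motif in capitals, and in Calr, Creld2 and the first line of Hsp90b1 the capitals are the reverse complement of the letters above.
Hspa5, chr2:34772020-34772048, plus strand: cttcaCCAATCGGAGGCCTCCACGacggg
Hsp90b1, chr10:86705528-86705556, minus strand: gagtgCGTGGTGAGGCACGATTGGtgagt
Hsp90b1, chr10:86705633-86705661, minus strand: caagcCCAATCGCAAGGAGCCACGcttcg
Calr, chr8:84847070-84847098, minus strand: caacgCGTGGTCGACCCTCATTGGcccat
Canx, chr11:50325795-50325823, minus strand: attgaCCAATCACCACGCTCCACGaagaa
Pdia6, chr12:17266486-17266514, plus strand: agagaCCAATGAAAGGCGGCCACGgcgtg
Creld2, chr15:88819515-88819543, plus strand: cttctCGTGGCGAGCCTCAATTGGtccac
Herpud1, chr8:94386372-94386392, plus strand: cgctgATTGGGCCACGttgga
Sec24d, chr3:123267465-123267482, plus strand: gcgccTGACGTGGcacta
In Hspa5 the first base of the motif lay 65 bases before the RefSeq start, which is inside the longer GENCODE gene whose coordinates are given above, and in Canx 145 bases before it.

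Ratios within a library gave the same separation without a scaling between libraries. The summed counts of the 17 genes of hydroxylation and procollagen chaperoning were 1.83 to 3.70 times those of the 13 ER folding genes in OPCs and 0.444 to 0.899 times in SSCs, with no overlap over the 17 libraries. The most abundant genes weigh most in such sums. In OPC WT replicate 3, Serpinh1 held 503155 and P4hb 172993 of the 928909 counts of the 17 genes. Set against type I collagen, the main client of the 17 genes, the order turned: per 100 counts of Col1a1 and Col1a2 there were 1.42 to 3.93 counts of Serpinh1 in OPCs and 6.35 to 21.9 in SSCs. For Hspa5 these numbers were 0.265 to 1.30 and 7.88 to 81.9. The ratios to collagen divide by a quantity that itself was far higher in OPCs.

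**Figure D3:**
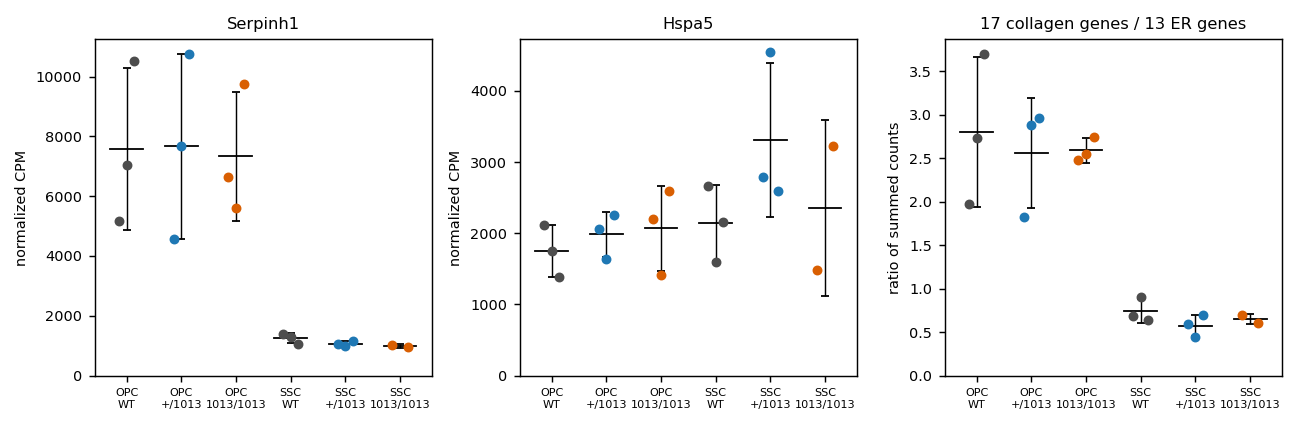
Normalized CPM of Serpinh1 and Hspa5, and the ratio of the summed counts of 17 collagen hydroxylation and chaperone genes to those of 13 ER folding genes, in each group (horizontal axis); points are libraries, lines are means and bars ± SD (n = 3, or 2 for 1013/1013 SSCs). Serpinh1 and the ratio are higher in every OPC library than in any SSC library (ratio 1.83 to 3.70 against 0.444 to 0.899), whereas Hspa5 overlaps.

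Outside the cell, Pcolce enhances the removal of the procollagen C-propeptide, and the lysyl oxidases Lox and Loxl1 to Loxl4 start the crosslinks. Loxl4 had 68.8, 190 and 163 normalized CPM in +/1013 OPCs against 14.7, 34.3 and 31.9 in SSCs, and 116, 125 and 173 in 1013/1013 OPCs against 2.42 and 21.9 in SSCs. No library of the mutant SSCs reached an OPC library, and Loxl4 fell, with log2 fold changes of -2.38 ± 0.61 (adjusted p = 0.0207) and -3.5 ± 0.76 (adjusted p = 0.00873), beside -1.36 in WT (adjusted p = 0.159). Loxl3 fell by 1.72 ± 0.48 in 1013/1013 mice (adjusted p = 0.0306), and DESeq2 called it in +/1013 as well (adjusted p = 0.0337). Lox, with log2 fold changes of -1.46, -1.63 and -1.41, was not called by edgeR (adjusted p = 0.114, 0.0759 and 0.171), whereas DESeq2 called it in WT and +/1013 mice (adjusted p = 0.0477 and 0.0183).

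Loxl2, Loxl1 and Pcolce were called in no genotype by edgeR, but each was among the 3 highest fold changes without overlap in a genotype. Loxl2 stood at 21.2, 44.0 and 19.1 normalized CPM in WT OPCs and 57.1, 48.1 and 52.2 in WT SSCs, a log2 fold change of 0.90 (adjusted p = 0.0849; DESeq2 0.87, adjusted p = 0.0484). Loxl1 had 74.3, 51.3 and 49.8 in 1013/1013 OPCs against 130.1 and 75.3 in SSCs, a log2 fold change of 0.81 (adjusted p = 0.366). Pcolce had 654, 1071 and 1144 in 1013/1013 OPCs against 1459 and 1642 in SSCs, a log2 fold change of 0.70 (adjusted p = 0.140).

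The 75 other genes of the pathway, a list that covers ER folding, transport to the Golgi, translocation, degradation, the PERK arm and collagen processing, were read from the same fit. In WT, 25 were lower and 0 higher in SSCs, where 5.86% of all genes were lower and 5.55% higher, led by Fkbp11, an isomerase gene of secretory cells (-3.65), the collagen-binding matrix protein Sparc (-3.38) and the retrieval receptor Kdelr3 (-2.70, log2 fold changes). In +/1013 mice 24 were lower (6.02% of all genes), with Adamts14, a procollagen N-proteinase, at -4.45, Sparc at -2.69 and Fkbp11 at -2.60. In 1013/1013 mice 21 were lower (6.12% of all genes), with Colgalt2 at -3.09, Sparc at -2.25 and Fkbp11 at -2.15. In both mutants 2 were higher (6.44% and 6.94% of all genes), the transport receptor gene Tmed10 (0.67 and 0.81) and Fkbp2 (0.81 and 1.02). Transport to the Golgi held the highest share of calls, 10, 9 and 10 of 17 genes, whereas the PERK arm had 0, 1 and 0 of 9.

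OPCs were next compared between genotypes, the comparison that asks whether the gain-of-function allele changes the progenitors themselves. By edgeR, 0 of the 45 genes were called for +/1013 against WT, 1013/1013 against WT or 1013/1013 against +/1013, where 0%, 0.00617% and 0% of 16207 genes were called. DESeq2 called 0 as well. At an unadjusted p under 0.05 there were 0, 1 and 0 genes, beside 2.04%, 3.38% and 3.17% of all genes. The gene was Plod3, with 134, 152 and 124 normalized CPM in WT and 191, 168 and 212 in 1013/1013 OPCs. It was the one gene of the 45 whose groups did not overlap, where 7.61% of all genes did not, and its log2 fold change was 0.47 ± 0.20 (adjusted p = 1.00). No gene was without overlap in the other 2 comparisons (5.28% and 7.34% of all genes). The SE of the 45 log2 fold changes had a median of 0.32 for 1013/1013 against WT, which sets the size of change that 3 libraries a group could show. Serpinh1 had log2 fold changes of 0.01 ± 0.42 and -0.05 ± 0.42 in +/1013 and 1013/1013 against WT, and Hspa5 0.17 ± 0.29 and 0.24 ± 0.29. For +/1013 and 1013/1013 against WT, 10 and 11 of the 13 ER folding genes had positive log2 fold changes, with medians of 0.08 and 0.14. So had 30 and 34 of the 45 genes, where 50.6% and 49.1% of all genes tested had negative ones. These directions were not tested. Of the 75 other genes of the pathway, 0 were called.

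The spread between OPC libraries of a group was wide for this pathway. Replicate 1 of +/1013 had the lowest level of the 9 OPC libraries for 22 of the 45 genes, whereas replicate 3 of 1013/1013 had the highest for 18 and replicate 3 of +/1013 for 8. Serpinh1 thus ran from 4579 to 10750.3 normalized CPM within +/1013 alone.

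SSCs were compared in the same way. By edgeR 0 of the 45 genes were called in each comparison, where 0.0736%, 0% and 0% of 17659 genes were called for +/1013 against WT, 1013/1013 against WT and 1013/1013 against +/1013. At an unadjusted p under 0.05 there were 10, 6 and 0 genes, beside 17.3%, 18.3% and 5.53% of all genes. The groups did not overlap for 11, 17 and 5 genes, beside 31.2%, 40.7% and 15.9% of all genes. DESeq2 called 3 genes for +/1013 against WT (Ppib, Pcolce and Loxl2), 1 for 1013/1013 against WT (Ppib) and 0 for the third comparison. These are 6.67%, 2.22% and 0% of the 45 genes, near or below the 4.86%, 6.45% and 0.847% of all genes that DESeq2 called. The DESeq2 shares are of the 28701 genes with any count in SSCs, a larger set than the 17659 that edgeR tested. The comparisons of both mutants with WT share the 3 WT libraries, and all genes tested had median log2 fold changes of -0.11 and -0.23 in them.

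Ppib (chr9:66060222-66066623, plus strand, mm10) had the lowest p of the 45. It was measured at 69.1, 65.0 and 53.4 normalized CPM in WT SSCs, 139, 146 and 123 in +/1013 and 135 and 129 in 1013/1013 SSCs. All mutant libraries were above all WT libraries, the highest WT value being 69.1 and the lowest mutant value 123. The log2 fold changes were 1.10 ± 0.16 (edgeR adjusted p = 0.0614) and 1.09 ± 0.18 (adjusted p = 0.0798), and DESeq2 gave 1.04 in both, with adjusted p = 4.3e-06 and 6.3e-05. edgeR too called Ppib in +/1013 when all 17 libraries were fitted together (adjusted p = 0.0499), and when genes had to reach 10 counts in every library (adjusted p = 0.0443). Of its exon bases, 25% overlap Snx22 on the other strand, and reads there could not be assigned since the library kit keeps no strand. Snx22 itself stood at 3.02, 1.06 and 0.206 normalized CPM in WT SSCs and at 0 to 1.05 in the mutants.

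Pcolce stood at 1076, 1177 and 763 normalized CPM in WT SSCs, 1835, 1682 and 1835 in +/1013 and 1459 and 1642 in 1013/1013 SSCs. The mutant libraries again lay above the WT libraries, with log2 fold changes of 0.81 ± 0.21 (edgeR adjusted p = 0.158; DESeq2 adjusted p = 0.0163) and 0.64 ± 0.23 (edgeR adjusted p = 0.221). Loxl2 (chr14:69609068-69695834, plus strand, mm10) lay on the other side, at 57.1, 48.1 and 52.2 normalized CPM in WT, 23.4, 20.1 and 35.8 in +/1013 and 34.6 and 28.6 in 1013/1013 SSCs. Its log2 fold changes were -1.01 ± 0.25 (edgeR adjusted p = 0.150; DESeq2 adjusted p = 0.0088) and -0.72 ± 0.28 (edgeR adjusted p = 0.243). Loxl2 shares near-identical stretches with 4 other annotated genes, which held 0.107 to 2.43% of the counts of these 5 genes together. Reads without a unique alignment are in none of these counts, so this share does not show how many Loxl2 reads were lost.

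Further genes without overlap were not called by either tool. Ern1 had 14.1, 14 and 24.8 normalized CPM in WT and 10.6, 4.98 and 8.14 in +/1013 SSCs, a log2 fold change of -1.19 ± 0.44 (adjusted p = 0.235). Loxl4 had 66.4, 48.3 and 37.6 in WT against 14.7, 34.3 and 31.9 in +/1013 and 2.42 and 21.9 in 1013/1013 SSCs, and its log2 fold changes were -0.93 ± 0.69 and -2.07 ± 0.83 (adjusted p = 0.559 and 0.254). Atf6 had 35.6, 28.0 and 41.0 in WT against 13.6 and 27.9 in 1013/1013 SSCs, a log2 fold change of -0.75 ± 0.33 (adjusted p = 0.285). Ddit3, at 28.6, 23.6 and 17.8 in WT and 37.4 and 50 in 1013/1013 SSCs, had a log2 fold change of 0.91 ± 0.39 (adjusted p = 0.272).

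**Figure D4:**
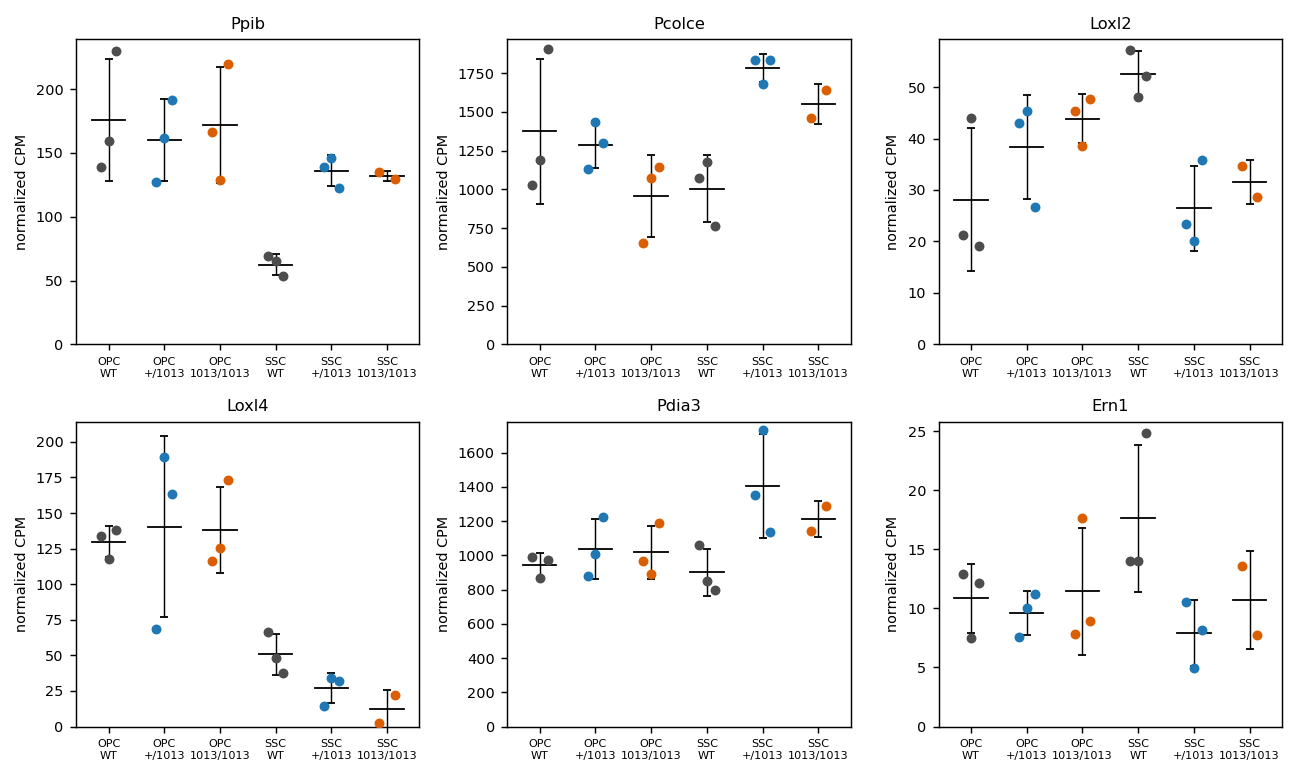
Normalized CPM (vertical axes) of Ppib, Pcolce, Loxl2, Loxl4, Pdia3 and Ern1 in the 6 groups (horizontal axis); points are libraries, lines are means and bars ± SD (n = 3, or 2 for 1013/1013 SSCs), cut at 0 for Loxl4. In SSCs Ppib lies above its WT values of 53.4 to 69.1 in all mutant libraries and Loxl2 lies below its WT values of 48.1 to 57.1, whereas in OPCs the genotypes overlap.

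The 13 ER folding genes had positive log2 fold changes in both mutant SSC groups, 13 of 13 in each under all 3 scalings tried, with medians of 0.42 and 0.31, but 0 were called by edgeR or by DESeq2. The 2 libraries of 1013/1013 SSCs were not alike in this. In replicate 1, Hspa5 (1484) and Dnajb9 (30.6 normalized CPM) lay below all WT SSC libraries (1597 to 2661 and 36.9 to 59.5). In replicate 2, at 3225 and 81.1, both lay above them. Of all genes tested, 55.2% and 57.8% had negative log2 fold changes. At an unadjusted p under 0.05 there were 4 and 1 of the 13. Pdia3, a disulfide isomerase for glycoproteins, was the highest of them in +/1013, with 1058, 849 and 797 normalized CPM in WT and 1351, 1732 and 1134 in +/1013 SSCs, a log2 fold change of 0.62 ± 0.22 (adjusted p = 0.228). Calr, the soluble lectin chaperone, had 456, 441 and 454 in WT, 584, 661 and 588 in +/1013 and 534 and 570.1 in 1013/1013 SSCs, without overlap between the 3 genotypes (log2 fold changes 0.42 ± 0.16 and 0.30 ± 0.17, adjusted p = 0.238 and 0.367). The 17 genes of hydroxylation and procollagen chaperoning had medians of 0.09 and 0.13, and Serpinh1 had log2 fold changes of -0.25 ± 0.18 and -0.33 ± 0.21. Markers of cell types differed between the same libraries. In WT against mutant SSCs, the 6 osteoblast lineage markers summed to 8124 to 12073 against 1926 to 4492 normalized CPM. Of this sum, Col1a1 alone made up 7535 to 10539 against 1006 to 2954. Bglap, Ibsp and Alpl overlapped between WT and each mutant. Sp7 was lower in +/1013 and Dmp1 in 1013/1013 SSCs, without overlap with WT. The 6 chondrocyte markers summed to 615 to 3861 against 48.6 to 235. The 6 SSC markers summed to 1506 to 1951 against 2174 to 4589, although Itgav among them was lower in the mutants, at 49.5 to 59.7 against 17.8 to 35.8. The 6 endothelial markers summed to 220 to 376 against 698 to 1040, of which Ly6c1 alone made up 215 to 373 against 679 to 1012. The other 5, Pecam1, Cdh5, Kdr, Emcn and Tie1, each stood at 35.1 or less in every SSC library, and the sort had removed CD31+ cells. The 12 markers of dissociation stress summed to 13480 to 14257 in WT, 14528 to 23676 in +/1013 and 13968 to 24113 in 1013/1013 SSCs. Replicate 2 had the highest of these sums in each mutant, and also the highest Hspa5 of its group, at 4552 and 3225 normalized CPM. The part of all these markers in the values of the ER folding genes was not tested. Among the 75 other genes of the pathway 0 were called, and 26 and 21 had an unadjusted p under 0.05, beside 17.3% and 18.3% of all genes. All 12 genes of translocation had positive log2 fold changes in +/1013 and 11 in 1013/1013 SSCs, where 55.2% and 57.8% of all genes tested had negative ones. These counts of directions were not tested.

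Between the mutants, no gene had an unadjusted p under 0.05. The 5 genes without overlap were Plod3 and P3h1, higher in 1013/1013, and Atf6, Calr and Pcolce, lower. Plod3 had 98.5, 103 and 106 normalized CPM in +/1013 and 112 and 116 in 1013/1013 SSCs, a log2 fold change of 0.19 ± 0.23, and P3h1 had 40.0, 51.2 and 58.8 against 59.5 and 63.7, a log2 fold change of 0.33 ± 0.25. Neither passed the test (edgeR adjusted p = 0.912 and 0.826).

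Among the 8 SSC libraries, +/1013 replicate 2 had the highest level for 15 of the 45 genes and WT replicate 3 the lowest for 14. The comparisons with 1013/1013 SSCs rested on 2 unlike libraries. Replicate 1 had the lowest level of the 8 SSC libraries for 13 of the 45 genes and replicate 2 the highest for 10, and Plod2, for example, stood at 31.3 and 219 normalized CPM. Without replicate 2, so that the lone library was assumed to vary like the other groups, edgeR called 6 genes against WT. That is 13.3% of the 45 genes, less than the 14.8% of all genes called in this setting. These were Loxl4 (-4.41), Lox (-2.02), Sec24d (-1.76), Atf6 (-1.39) and Loxl3 (-1.37), which were lower, and Ppib (1.09), which was higher. Against +/1013 it then called 2, Loxl4 (-3.48) and Sec24d (-1.63), which is 4.44% of the 45 genes beside 9.17% of all genes. With replicate 2 as the lone library it called 0.

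**Figure D5:**
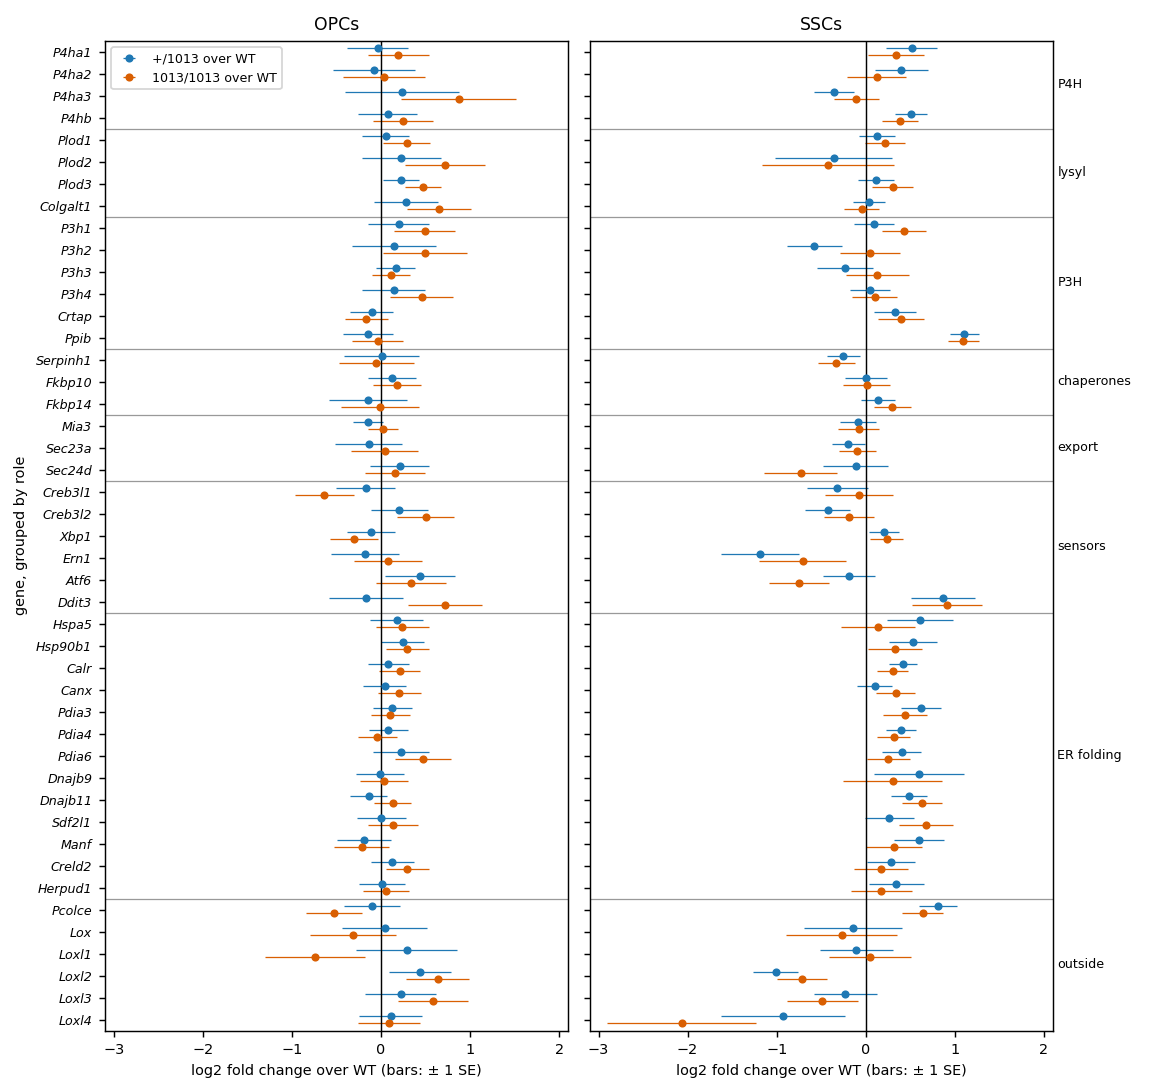
Log2 fold change over WT (horizontal axes, bars ± 1 SE from the edgeR fits) of each gene (vertical axis, grouped by role) for +/1013 and 1013/1013 mice, in OPCs on the left and SSCs on the right; no gene was called. In SSCs the 13 ER folding genes lie above 0 with medians of 0.42 and 0.31, Ppib at 1.10 and 1.09 and Loxl2 at -1.01 and -0.72. In OPCs 10 and 11 of the 13 ER folding genes also lie above 0, with medians of 0.08 and 0.14. Most genes lie within an SE or so of 0 there.

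Whether the genotype acted differently in SSCs and OPCs was tested as an interaction in the fit of all 17 libraries. By edgeR 0 of the 45 genes were called for either mutant, where 0.084% and 0.153% of 20238 genes were called, and 4 genes each had an unadjusted p under 0.05, beside 10.6% and 15% of all genes. Ppib, Pcolce and Loxl2 were among the 4 in both. The Ppib effect was 1.26 ± 0.33 higher on the log2 scale in SSCs than in OPCs for +/1013 (edgeR adjusted p = 0.265; DESeq2 1.25, adjusted p = 0.0330) and 1.12 ± 0.35 higher for 1013/1013 (edgeR adjusted p = 0.196). For Pcolce the differences were 0.92 ± 0.38 and 1.15 ± 0.40 (adjusted p = 0.432 and 0.235), and for Loxl2 -1.44 ± 0.45 and -1.37 ± 0.48 (adjusted p = 0.346 and 0.237). DESeq2 called 1 gene, Ppib, for +/1013 and 0 for 1013/1013. Without SSC 1013/1013 replicate 2, edgeR called 3 for 1013/1013, Loxl4 (-4.45), Plod2 (-3.11) and Sec24d (-1.87), which is 6.67% of the 45 genes beside 8.73% of all genes. The calls between cell types in WT alone (Ppib, Xbp1 and P4ha3) and in mutants alone (Plod2, Loxl4, Loxl3, Sec24d, Ddit3 and Sdf2l1) were thus not shown by edgeR to differ between genotypes with all libraries in the fit, and by DESeq2 Ppib alone was, for +/1013.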

How the data were processed

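RNA of sorted SSCs and OPCs was amplified with SMART-Seq v4, made into Nextera XT libraries and sequenced paired-end by the authors. Reads under 50 bp were removed by the authors, STAR served for alignment to mm10, and HTSeq gave counts per gene. The deposited files hold raw counts per gene for each library, with no normalization, and summary lines that name no gene were left out, of which reads in no feature were 1.15 to 4.15%, ambiguous reads 1.87 to 3.93% and reads without a unique alignment 5.10 to 10.4%. Gene IDs were matched to GENCODE M21 without version numbers.

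Counts were tested in R 4.3.3 with edgeR 4.0.16 (quasi-likelihood test, TMM, filterByExpr). SSCs and OPCs, and interactions, were contrasted in a fit of all 17 libraries, and genotypes in a fit of each cell type. SE is the log2 fold change divided by the root of F. The code was tested on simulated data. Alternatives were DESeq2 1.42.0, other scalings, filters and sample sets, a replicate block, and each library left out. Leaving out libraries with leukocyte or plasma cell markers over 2000 normalized CPM was added after seeing the data. Members, lists and tests were chosen with earlier results of these data known. Library values are given for the 3 highest and 3 lowest genes without overlap in a comparison, and further genes were named after their values were seen. Replicates are separate pools of mice.

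Same-numbered libraries deviated together in 3 of 3 pairs (correlation over 0.1) for SSCs against OPCs in WT (0.135 to 0.402) and for 1013/1013 against +/1013 OPCs (0.129 to 0.227). For 1013/1013 against +/1013 SSCs they did in 2 of 2 pairs (0.140 to 0.146). A library correlated best with the one of its own number in 1 of 3, 3 of 3 and 2 of 2 of these pairs. Near-identical copies were searched with BLAST 2.17.0 (95% identity over 200 bases).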

Additional observations from a re-analysis of the deposited data

How the results depend on the processing

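Calls were followed for the genes called in a comparison or among the 3 highest and 3 lowest without overlap there. Among these, no log2 fold change changed sign under an alternative, 128 calls were lost and 17 gained. Genes outside this set gained calls as well. For SSCs against OPCs, Calr and Pdia4 were each called in 5 of 16 alternatives in WT. In +/1013 mice Plod3, Creb3l2 and Lox were each called in 5 of 16. The median log2 fold change over the 45 genes, which has no test, stayed negative for SSCs against OPCs in each genotype. With a library left out it crossed 0 for +/1013 against WT OPCs (0.08, down to -0.14), 1013/1013 against +/1013 OPCs (0.13, to -0.03), 1013/1013 against WT SSCs (0.17, to -0.06), 1013/1013 against +/1013 SSCs (-0.01, from -0.22 to 0.10) and the interactions (0.07, to -0.09; 0.00, from -0.24 to 0.13). Counts of the 45 genes called that moved by over 1.5 times were as follows. For SSCs against OPCs, leaving out libraries with blood cell transcripts gave 7 in WT and 8 in +/1013 mice, and fitting the 2 groups alone gave 1 in 1013/1013 mice. Leaving out each library in turn gave 7 to 22 in +/1013 and 5 to 16 in 1013/1013 mice. In WT it gave 11 to 14, which is within 1.5 times of the main count. For SSCs, +/1013 against WT gave 3 with DESeq2, 1 with at least 10 counts in every library and 1 with all 17 libraries, and 0 with each library left out in turn. The comparison of 1013/1013 with WT gave 1 with DESeq2 and 0 to 6 without each library, and that with +/1013 gave 0 to 2. The interactions gave 1 with DESeq2 for +/1013 and 0 to 3 without each library for 1013/1013. The cause was not tested. With the replicate block, 15, 16 and 17 genes were called for SSCs against OPCs and 0 elsewhere, so it changed no count. Where pairs did not all deviate together, the libraries share only a number. The 2 libraries of 1013/1013 SSCs and the SEs of the genotype comparisons limit what could be called.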
